A study of Mus musculus with 12 samples.

Results

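The cytosolic ribosomal protein genes are the genes for the proteins of the ribosome that translates messenger RNA in the cytosol. Members were taken from the deposited count table as protein-coding genes whose symbol is Rpl or Rps followed by a digit, together with Rplp0, Rplp1, Rplp2 and Rpsa, leaving out S6 kinases and pseudogene symbols. This gave 84 members of the 15555 genes in the table. Of these, 77 encode core ribosomal proteins, 46 of the large and 31 of the small subunit. Another 6 are paralog copies (Rpl7l1, Rpl22l1, Rpl36al, Rpl39l, Rps27l and Rps27rt), and 1 member, Rps19bp1, meets the rule by its symbol but encodes a nucleolar binding partner and not a ribosomal protein. All 84 members passed the filter on low counts, which kept 12671 genes for testing. Rpl39l passed with counts of only 1 to 13 per library.

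Ribosomes carry nearly every ribosomal protein in equal number, so these genes are usually expressed in proportion to one another. Their messenger RNAs are known as TOP mRNAs, because they start with a C followed by a run of pyrimidines, and their translation is switched on by the kinase complex mTORC1 and held back by the RNA-binding protein Larp1. Growth factors such as CSF-1, on which macrophages depend, feed into this pathway. Ribosomal proteins that are not built into a ribosome can also bind the ubiquitin ligase Mdm2 and so stabilise p53.

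RNA was measured by sequencing in mouse macrophages grown from bone marrow with L-cell supernatant, a source of CSF-1, until day 9. There were 4 genotypes with 3 libraries each: wild type (WT), a knockout of the ubiquitin ligase gene Cbl (Cbl-/-), a knockout of its relative Cbl-b (Cbl-b-/-), and the double knockout of both (DKO). The design compares the transcriptome when either ligase, or both, is lost. Strain, sex and age of the mice and the kind of knockout allele are not given in the labels, nor whether the 3 libraries of a genotype came from separate animals, so the p-values below measure the spread among these libraries alone, and it may be technical.

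Total counts ranged from 21048103 to 43946503 per library. Cbl had 140 (140.2) CPM in WT, where CPM are counts scaled to the size of each library, against 51.5 in Cbl-/- and 37.6 in DKO. Cblb had 59.4 CPM in WT, 52.8 in the libraries labelled Cbl-b-/- and 71.7 in those labelled DKO, so its counts do not bear out those labels, and Cbl-b-/- and DKO below mean the libraries so labelled. All 10 macrophage markers listed were present, with 17140 to 22870 CPM in sum in every library.

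The start of the transcript is shown first for the members that rose the most in DKO, since the pyrimidine run at the start is the feature by which these messenger RNAs are known. The windows were read from RefSeq promoters (GRCm38.p6) on the strand of the gene, with 15 bases before the start and 15 bases from the start onward. Capitals mark the longest unbroken run of C and T that touches the 10 bases on either side of the start. Such a run can lie wholly before the start, as in Rpl27, Rps27l and Rpl7l1, and is then outside the annotated transcript. Rpl27, Rpl12, Rpsa, Rps27l, Rpl7l1 and Rpl39 rose the most against WT. Rps6 and Rps2 were among the largest rises against a single knockout.
Rpl27 (chr11:101442230-101442259, plus strand): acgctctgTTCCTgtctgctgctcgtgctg
Rpl12 (chr2:32961697-32961726, plus strand): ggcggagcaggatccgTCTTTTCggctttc
Rpsa (chr9:120127751-120127780, plus strand): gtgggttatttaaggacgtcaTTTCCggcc
Rps27l (chr9:66946071-66946100, plus strand): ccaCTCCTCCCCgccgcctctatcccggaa
Rpl7l1 (chr17:46782642-46782671, minus strand): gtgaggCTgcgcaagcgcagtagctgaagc
Rpl39 (chrX:37085208-37085237, minus strand): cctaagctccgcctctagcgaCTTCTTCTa
Rps6 (chr4:86857353-86857382, minus strand): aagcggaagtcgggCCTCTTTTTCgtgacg
Rps2 (chr17:24720048-24720077, plus strand): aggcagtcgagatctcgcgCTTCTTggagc

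The longest run in these windows was 10 bases in Rps6, 9 in Rps27l and 8 in Rpl39, and it was only 2 bases in Rpl7l1, a copy that works in ribosome assembly. Promoters were listed for 64 members. A run of at least 8 bases was found in 27 of them (42.2%), against 13.5% of all 27025 promoters and 13% of the 69 listed for mitochondrial ribosomal proteins. Only the strand of the gene was searched. Runs on either side of the start were counted, so these shares are not those of runs within the transcript. The length of 8 was chosen after the data were seen. Of the 27 members with such a run, 22 were higher in DKO than in WT (median log2 fold change 0.32), as were 27 of the 37 with a shorter one (median 0.25). Both stand beside 77.4% of all 84 members and 19.1% of all genes tested that were higher. Whether the length of the run bore on the rise was not tested. The window is a description of the annotated start and not a measured transcript end. Rpl29 has no listed promoter.

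Per length, the 3 members with the highest mean level over the 12 libraries were Rplp1, an acidic protein of the ribosomal stalk, at 957 CPM per kilobase, the small subunit protein gene Rps3a1 at 609, and the stalk base gene Rplp0 at 591. The lowest were the copies Rpl39l (0.22) and Rps27rt (5.03) and the core gene Rpl13 (8.33). The median of the core members was 190 CPM per kilobase (189.6), and 73 of the 77 had a mean above 100 CPM. Messenger RNAs of this family have many processed copies in the genome, and a median of 41% of the 50-base stretches of a member's transcript also occurred in a transcript of another gene. How reads with several matches were handled is a step not given in the sources used here, so the level of each such member is uncertain.

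Ribosomal protein genes were higher in DKO than in WT as a family, with 1 exception. Of the 84 members, 65 rose and 1, Rpl29, fell by edgeR's quasi-likelihood test, while 35.4% of all genes tested were called in either direction at an adjusted p under 0.05, 19.1% higher and 16.3% lower. The rises were small, from 1.12-fold to 1.66-fold with a median of 1.22-fold. The median log2 fold change over the members was 0.26, against -0.003 over all genes tested, and 82 of the 84 were above 0. All 3 DKO libraries lay above all 3 WT libraries for 66 members, against 23.7% of genes tested. In bulk RNA of a whole culture, more RNA per cell and more cells of a type that makes it cannot be told apart.

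Among fits without 1 library, the count was smallest without WT 1, with 42 members higher and Rpl29 lower. The median log2 fold change of the members was then 0.23. WT 1 had the lowest level of 59 members among the WT libraries. Such a fit also holds fewer libraries, and the share of all genes called in it is not given here. Why the count fell was not tested. With scaling by total counts in place of TMM factors, 43 were higher and Rpl29 lower, and the split of all genes called changed from 2423 higher and 2062 lower to 1773 higher and 2873 lower. The median of the members was 0.19 under that scaling, when that of all genes was -0.07.

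**Figure D1:**
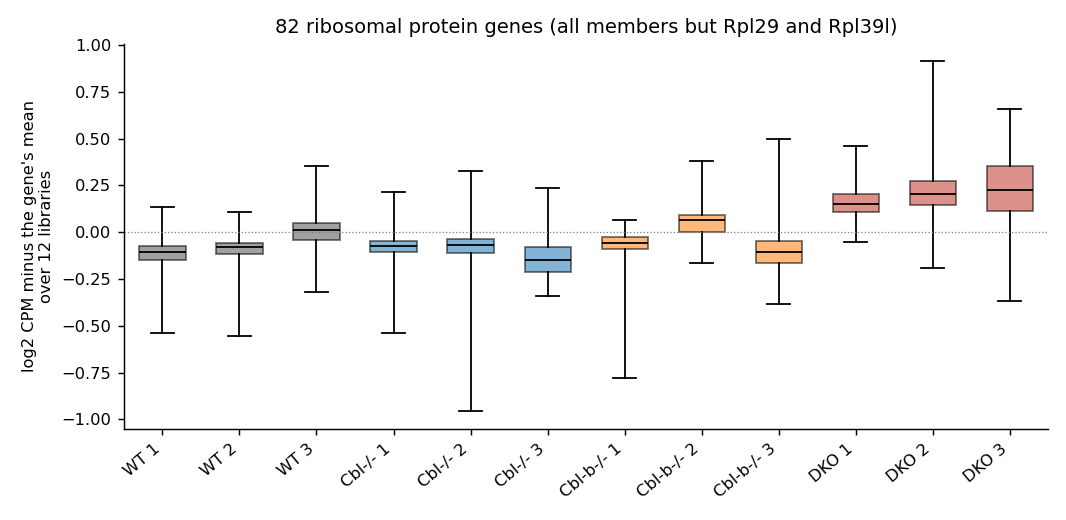
Level of 82 members in each of the 12 libraries, as log2 CPM minus the gene's own mean over the libraries; boxes span the quartiles, lines mark medians and whiskers the extremes, and Rpl29 and Rpl39l are left out. Computed over the 83 members other than Rpl29, with a prior count of 2, the medians are 0.15, 0.20 and 0.22 in the 3 DKO libraries. They lie between -0.15 and 0.06 in the other 9.

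Most members moved together across the 12 libraries, DKO included. Relative to each gene's mean, the median member stood at -0.11, -0.08 and 0.01 in WT 1 to 3, at -0.07, -0.07 and -0.15 in Cbl-/-, at -0.06, 0.06 and -0.10 in Cbl-b-/-, and at 0.15, 0.20 and 0.22 in DKO, on the log2 scale. The DKO libraries were thus the 3 highest and did not overlap the rest. For 48 members all 3 DKO libraries lay above all other 9, against 13.9% of genes tested. Across the 12 libraries, the 83 members other than Rpl29 had a median Pearson r of 0.89 with the median of the other members, from 0.21 to 0.98, and 59 were above 0.8. These correlations describe genes that share libraries, depth and genotype, and they include the DKO rise described above. They were not computed for other sets of genes, so they have no background to stand beside.

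Members took a larger share of all counts in the DKO libraries. In WT the share was 2.58%, 2.64% and 2.79%, in Cbl-/- 2.69%, 2.66% and 2.56%, in Cbl-b-/- 2.67%, 2.88% and 2.63%, and for the double knockout 2.99%, 3.02% and 3.04%. Every DKO library lay above every other library, while the remaining 3 genotypes overlapped. The mean was 2.67% ± 0.11 in WT and 3.02% ± 0.03 in DKO (SD, n = 3; two-sided exact permutation test p = 0.1, the smallest that 3 against 3 can give). Against WT the exact permutation p was 0.8 for Cbl-/- (2.64% ± 0.07) and 0.6 for Cbl-b-/- (2.73% ± 0.14), each with n = 3. The ratio of large to small subunit counts was 1.32 ± 0.007 in WT and 1.27 ± 0.02 in DKO, and all 3 DKO libraries (1.25 to 1.29) lay below all 3 WT libraries (1.31 to 1.33). The exact permutation p with n = 3 was again 0.1. Much of that difference was Rpl29 itself: without its counts, a setting added after seeing the data, the ratio was 1.298, 1.288 and 1.284 in the WT libraries and 1.285, 1.281 and 1.251 in the DKO libraries. The groups then overlapped, and the difference of DKO minus WT moved from -0.046 to -0.018 (exact permutation p = 0.2, n = 3).

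Both subunits took part. In DKO against WT, 23 of the 31 small subunit members rose and none fell, with a median log2 fold change of 0.26. Over all genes tested 19.1% were higher and 16.3% lower, and 77.4% of the 84 members were higher. Of the 46 large subunit members, 38 rose and only Rpl29 fell, also with a median of 0.26. The members without a call included Rpl17, which lines the exit of the peptide tunnel (0.04), and Rps14 (0.07). Apart from Rpl39l, all 17 of them had values above 0, from 0.04 to 0.40.

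Among the small subunit proteins, Rpsa, the laminin receptor protein that sits near the mRNA exit, stood clear of its error. It had 851, 881 and 907 CPM in the WT libraries, 895, 893 and 826 in Cbl-/-, 873, 947 and 913 in Cbl-b-/-, and 1160 (1160.0), 1268 and 1319 in the DKO libraries. The 3 DKO libraries stood well above the other 9, which overlapped one another. The log2 fold change against WT was 0.51 (SE 0.06, edgeR adjusted p = 4.48e-06). Rps6, the S6 kinase target downstream of mTORC1, had 504, 495 and 536 CPM in the WT libraries, 486, 465 and 447 in Cbl-/-, 511, 508 and 431 in Cbl-b-/-, and 612, 629 and 669.92 in the DKO libraries. It was highest in the DKO libraries and lowest in Cbl-b-/- 3. Rps27a, which is made as a fusion with ubiquitin, had 328, 339 and 359 CPM in the WT libraries, 301, 309 and 275 in Cbl-/-, 335, 373 and 313 in Cbl-b-/-, and 388, 393 and 543 in the DKO libraries. Here DKO 3 stood far above the other DKO libraries. Rps2, at the channel where mRNA enters, had 509, 526 and 562 CPM in the WT libraries, 539, 549 and 533 in Cbl-/-, 522, 544 and 519 in Cbl-b-/-, and 739.59, 764 and 605 in the DKO libraries, with DKO 3 the lowest of its group.

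Among the large subunit proteins, the largest rise in DKO was that of Rpl27, whose human gene is mutated in some patients with Diamond-Blackfan anaemia. It had 65.4, 71.8 and 68.7 CPM in the WT libraries, 72.1, 84.9 and 92.9 in Cbl-/-, 68.8, 99.3 and 90.7 in Cbl-b-/-, and 116, 142 and 84.4 in the DKO libraries. DKO 3 lay inside the range of both single knockouts, and only WT was clear of DKO. The log2 fold change against WT was 0.73 (SE 0.18, edgeR adjusted p = 0.00818), and Rpl27 was not called against Cbl-/- (0.45, adjusted p = 0.0805) or Cbl-b-/- (0.41, adjusted p = 0.106). Rpl12, at the base of the stalk, had 268, 282 and 296 CPM in the WT libraries, 299, 292 and 272 in Cbl-/-, 300.37, 321 and 259 in Cbl-b-/-, and 378, 395 and 459 in the DKO libraries. Its DKO libraries were clear of all others, with a log2 fold change against WT of 0.54 (SE 0.08, edgeR adjusted p = 6.64e-05). Rpl39, a very small protein in the wall of the peptide tunnel, had 242, 248 and 286 CPM in the WT libraries, 239, 246 and 224 in Cbl-/-, 257, 285 and 205 in Cbl-b-/-, and 289.61, 324 and 418 in the DKO libraries. Its log2 fold change of 0.41 (SE 0.13, edgeR adjusted p = 0.0263) rested on DKO 3 and was 0.25 without it (adjusted p = 0.195). Leaving out WT 1, WT 2 or DKO 2 also ended the call.

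The stalk proteins Rplp0, Rplp1 and Rplp2, which recruit translation factors to the ribosome, all rose in DKO, with log2 fold changes against WT of 0.17, 0.29 and 0.23. Of the 9 listed proteins around the peptide tunnel and its exit, 8 rose and Rpl17 did not. Of the 6 measured proteins listed along the path of the mRNA and at the decoding site, 4 rose, among them Rps2 (0.40) and Rps3 (0.26). Of the 19 genes listed for Diamond-Blackfan anaemia, a failure of red cell production caused by too little of a ribosomal protein, 14 rose. The other 5 were Rpl5, Rps24, Rps28, Rps29 and Rps7, with values of 0.13 to 0.20 (Rps29 0.13, Rps24 0.20). As 77.4% of all 84 members rose, against 19.1% of all genes tested, these lists largely repeat the family. Whether any of them differed from the rest of the family was not tested.

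Of 7 members listed for roles outside the ribosome, some of them in immune cells, 6 rose in DKO. They were Rpl13a (0.25), which silences inflammatory mRNAs in human myeloid cells, Rps3 (0.26), a partner of the NF-kB subunit p65, Rpl22 (0.34), which is needed for T cell development in mice, Rps25 (0.21), Rps6 (0.32) and Rpsa. The seventh, Rpl22l1, had 0.33 with a larger error (SE 0.16, edgeR adjusted p = 0.134). Of the 6 members that bind Mdm2 or form the 5S particle, Rpl11 (0.20), Rpl26 (0.22) and Rps27l (0.42) rose, and Rpl5 (0.14), Rpl23 (0.15) and Rps7 (0.17) were not called. Both lists stand beside 77.4% of all 84 members and 19.1% of all genes tested that were higher. Rpl5, which enters the ribosome together with Rpl11 and 5S RNA, had 189 and 178 CPM in DKO 1 and DKO 2 and 258 in DKO 3.

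Of the 6 paralog copies, 3 rose in DKO against WT, beside 77.4% of all 84 members and 19.1% of all genes tested. Rps27l, a copy of Rps27 that p53 induces, rose from 108.5 ± 7.46 CPM in WT to 145 ± 16 in DKO (SD, n = 3), with a log2 fold change of 0.42 (SE 0.09, edgeR adjusted p = 0.00113). Rps27 itself had 0.39 (adjusted p = 0.0479), and the difference between both was not tested. The libraries of Rps27l were 103, 106 and 117 CPM in WT and 132, 141 and 164 in DKO. Rpl7l1 rose by 0.42 on the log2 scale, from 83.3 ± 2.8 to 112 ± 5.3 CPM, and Rpl36al by 0.20. Rps27rt, whose sequence is found in other genes over 91.1% of its length in 50-base stretches, had 1.74 CPM in WT and 1.91 in DKO. Rpl39l, a copy best known from testis, had 6, 12 and 9 counts in WT and 2, 5 and 9 in DKO, and at these counts a difference was not detectable (edgeR adjusted p = 0.336).

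**Figure D2:**
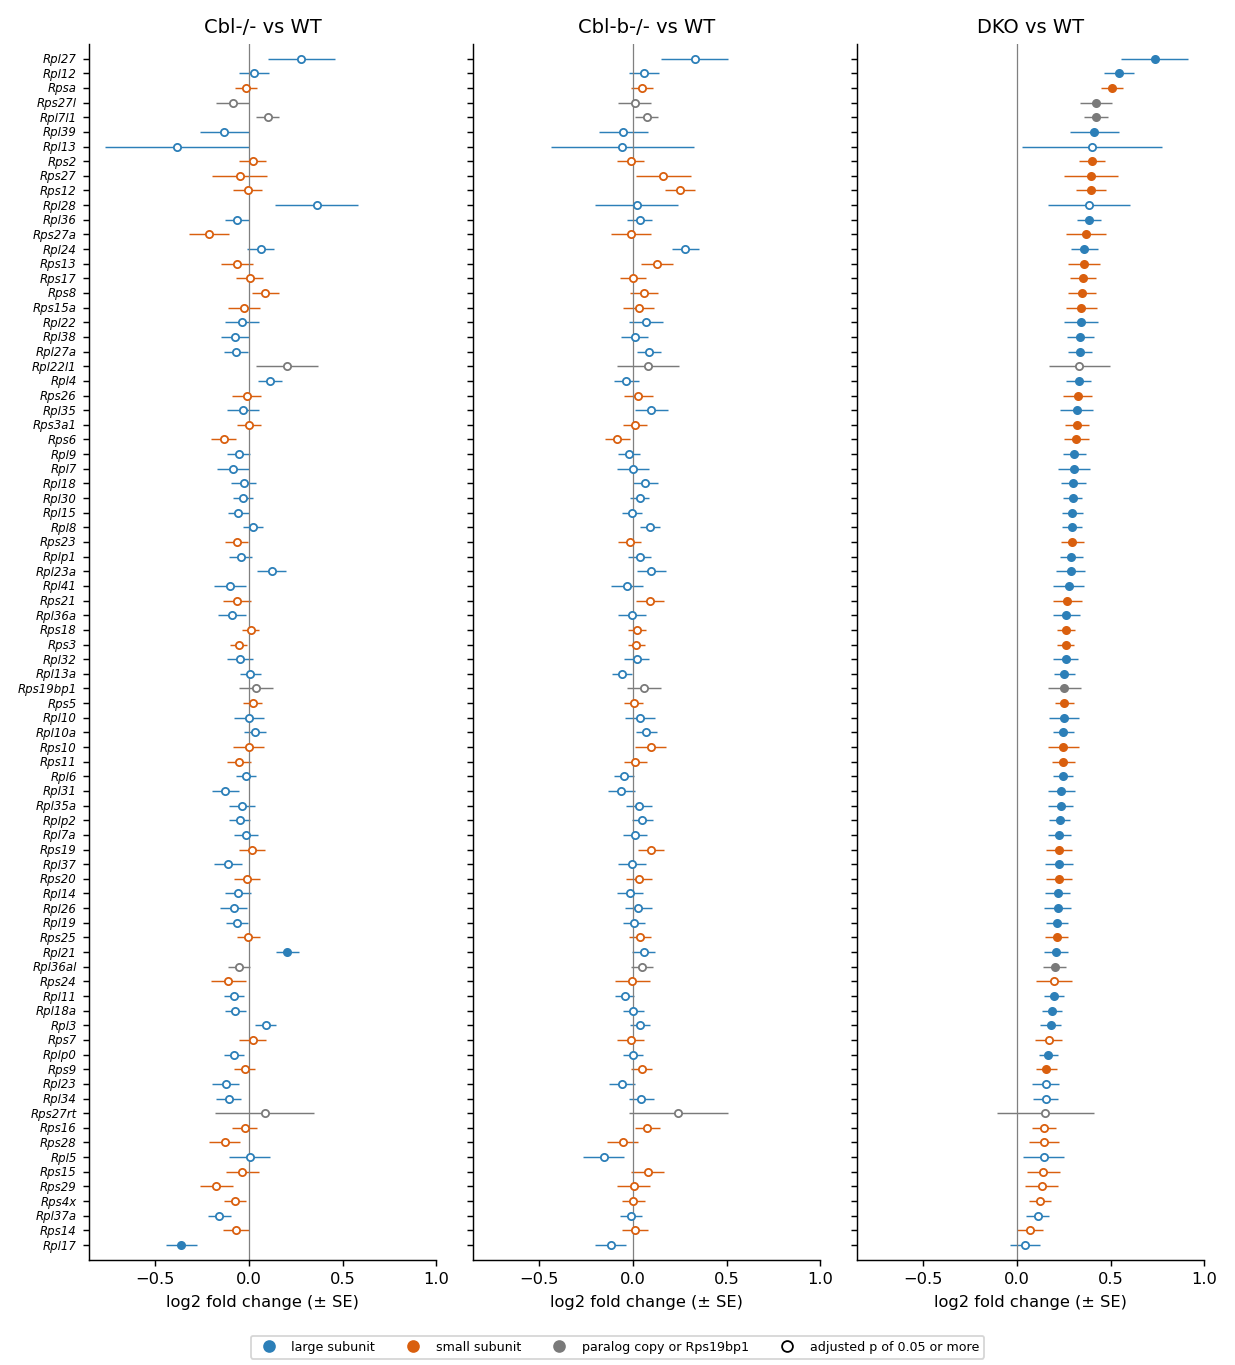
Log2 fold change against WT of 82 members in Cbl-/-, Cbl-b-/- and DKO, with lines of 1 SE and filled circles for an adjusted p under 0.05; Rpl29 and Rpl39l are left out and members are ordered by the DKO value. In DKO all 82 lie above 0 and 65 are filled, while in Cbl-/- only Rpl21 and Rpl17 and in Cbl-b-/- none of these 82 is filled.

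Rpl29 went the other way from its family. It encodes a large subunit protein that is also known on the cell surface as a binder of heparan sulfate (ENSMUSG00000048758, chromosome 9, 106429454 to 106431568, plus strand, GRCm38). WT libraries had 319.95, 332.5 and 345 CPM, Cbl-/- libraries 338, 348 and 329, Cbl-b-/- libraries 184, 220.21 and 204, and DKO libraries 4.24, 6.14 and 6.60. WT and Cbl-/- overlapped, Cbl-b-/- lay below both, and DKO lay far below all others. In counts, the DKO libraries held 152, 193 and 272, so its counts were not at 0. Whether these reads came from Rpl29 or from its copies elsewhere was not tested.

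The mean of Rpl29 was 332.5 ± 12.5 CPM for WT, 338 ± 9.49 for Cbl-/-, 203 ± 18.1 for Cbl-b-/- and 5.66 ± 1.25 for DKO (SD, n = 3), which is 102%, 61.0% and 1.70% of WT for the 3 knockouts. The order of the levels was thus WT and Cbl-/- together, then Cbl-b-/-, then DKO. The log2 fold change against WT was 0.02 (SE 0.09, edgeR adjusted p = 0.925) in Cbl-/-, -0.71 (SE 0.09, adjusted p = 0.000658) in Cbl-b-/- and -5.87 (SE 0.12, adjusted p = 7.15e-15) in DKO. The calls in Cbl-b-/- and DKO held under every alternative run. Of the 50-base stretches of its transcript, 47.9% also occur in transcripts of 80 other genes, so its counts are uncertain. Across the 12 libraries the members most like Rpl29 by Pearson r of log2 CPM were Rpl39l (0.05), Rps27rt (-0.11) and Rpl28 (-0.30), so none followed it closely. All other members had a negative r, down to -0.97 for Rps18. In the DKO libraries Rpl29 was at its lowest and the family at its highest. Since Rpl29 was far lower there than in any other library, r mostly restates the contrast of DKO with the rest. Rpl39l and Rps27rt were also near the floor, with means of 0.18 and 1.88 CPM.

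Genes next to Rpl29 on chromosome 9 also differed between the genotypes. Of 23 genes of the table that reach within 500 kb, 20 were tested. In DKO against WT, 9 were lower and 3 higher, so 45% were lower against 16.3% of all genes tested. In Cbl-b-/- only Abhd14b, a hydrolase gene, was lower, and in Cbl-/- only Acy1, an aminoacylase gene, was higher. None of the 20 fell as far as Rpl29. The neighbours named next were chosen after their values were seen.

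Abhd14b, 15.9 kb from Rpl29, had 13.5, 13.9 and 12.5 CPM in the WT libraries, 12.3, 12.6 and 14.7 in Cbl-/-, 8.10, 8.13 and 9.14 in Cbl-b-/-, and 4.40, 4.61 and 4.99 in the DKO libraries. It had the same order of genotypes as Rpl29, with log2 fold changes of -0.66 (SE 0.10, edgeR adjusted p = 0.00414) in Cbl-b-/- and -1.51 (SE 0.11, adjusted p = 2.07e-08) in DKO. Pcbp4, an RNA-binding protein gene 21.7 kb away, was also lower in DKO (-2.03, SE 0.19), and Dusp7, a phosphatase gene 53.7 kb away on the other side, had -0.89 (SE 0.08). Their values in Cbl-b-/- were -0.75 (adjusted p = 0.0956) and -0.34 (adjusted p = 0.0808). Acy1, the nearest gene at 1.41 kb, was higher in DKO (1.80, SE 0.25) and in Cbl-/- (1.64, SE 0.25), from a mean of only 0.85 CPM in WT. Beyond 200 kb, Tlr9, a receptor for unmethylated DNA, was lower (-1.14) and Manf, a secreted stress protein gene, higher (0.56) in DKO.

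**Figure D3:**
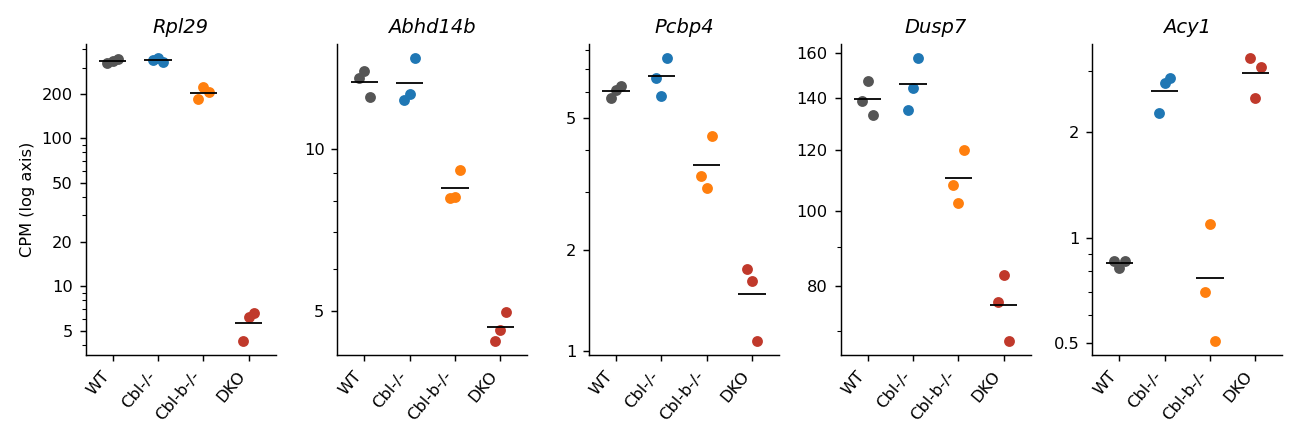
CPM on a log axis of Rpl29 and of 4 neighbouring genes in each library, with points for the 3 libraries of a genotype and a bar for their mean; each panel has its own axis. Rpl29, Abhd14b, Pcbp4 and Dusp7 are lowest in DKO with Cbl-b-/- in between, whereas Acy1 is high in Cbl-/- and DKO.

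**Figure D4:**
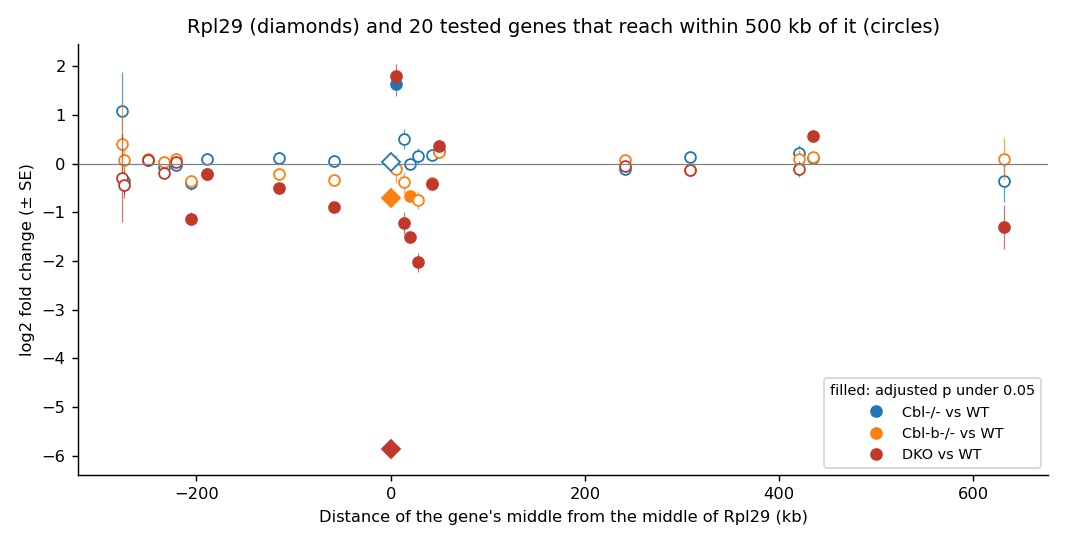
Log2 fold change against WT, with lines of 1 SE, of Rpl29 (diamonds) and of the 20 tested genes that reach within 500 kb of it (circles), by the distance between gene middles in kb. Filled symbols passed an adjusted p of 0.05, and Rpl29 in DKO at -5.87 lies well below the lowest neighbour, Pcbp4 at -2.03.

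In Cbl-/- against WT the family as a whole did not move. Of the 84 members 1 rose and 2 fell, while 9.87% of all genes tested were called, 5.68% higher and 4.19% lower. The median log2 fold change was -0.04 against -0.01 over all genes, and 58 members had values below 0. Rpl17 fell from 272, 268 and 285 CPM in WT to 216, 212 and 215, with a log2 fold change of -0.36 (SE 0.08, edgeR adjusted p = 0.0085), and the groups did not overlap. In DKO it had 267, 252 and 331 CPM, a range that held the WT values.

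Rpl21, a large subunit protein, rose in Cbl-/- by 0.21 (SE 0.06, edgeR adjusted p = 0.0462), from 123, 115 and 128 CPM to 145, 141 and 136. The groups did not overlap, but the call was lost with no filter on low counts (edgeR adjusted p = 0.0507), with scaling on the members alone (adjusted p = 0.0577) and without any 1 of WT 1, WT 2, Cbl-/- 1, Cbl-/- 2, Cbl-/- 3, Cbl-b-/- 2 or DKO 1. Rpl39l had 1 count in each Cbl-/- library against 6, 12 and 9 in WT, and its call (edgeR adjusted p = 0.0359) was lost with DESeq2, with limma voom and without single libraries. The number of members called was 8 when the fit held WT and Cbl-/- alone, where Rps27a (-0.21) and Rps6 (-0.13) were among the 5 lower ones. It was 6 without DKO 3, and 1 without WT 2, Cbl-/- 1, Cbl-/- 2 or Cbl-/- 3, when Rpl17 alone was called.

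In Cbl-b-/- against WT, Rpl29 was the only member called, against 0.489% of all genes tested (0.395% higher, 0.0947% lower). The median over the members was 0.02, against 0.001 over all genes (0.0006), and the 83 without a call had values from -0.16 to 0.33. The ends of that range were Rpl5 at -0.16 (SE 0.11) and Rpl27 at 0.33 (SE 0.18). With DESeq2, Rpl24, a large subunit protein, was also called higher (0.28, DESeq2 adjusted p = 0.0306; edgeR adjusted p = 0.14).

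DKO differed from each single knockout in the same direction as from WT. All of these comparisons share the DKO libraries, so they are not independent. Against Cbl-/-, 68 of the 84 members were higher and Rpl29 lower, with 29.6% of all genes called (16% higher, 13.6% lower), and the median log2 fold change was 0.30 against 0.01 over all genes. The 6 largest rises were those of Rps27a (0.58), Rpl39 (0.54), Rpsa (0.52), Rpl12 (0.52), Rps27l (0.51) and Rps6 (0.45). Rpl17, low in Cbl-/-, was 0.40 higher in DKO (SE 0.08, edgeR adjusted p = 0.00131).

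Against Cbl-b-/-, 50 members were higher and Rpl29 lower, with 33.2% of all genes called (17.7% higher, 15.6% lower), and the median was 0.23 against -0.001 (-0.0006) over all genes. Rpl12 (0.49), Rpl39 (0.46), Rpsa (0.46), Rps27l (0.41), Rps2 (0.41) and Rps6 (0.40) rose the most. Without Cbl-b-/- 3, the library of least depth, 32 were higher and Rpl29 lower, and with scaling by total counts 28 were higher. Under that scaling the split of all genes called moved from 2237 higher and 1974 lower to 1543 and 3207, and against Cbl-/- from 2027 and 1720 to 1362 and 2747. Rpl29 had log2 fold changes of -5.90 against Cbl-/- and -5.16 against Cbl-b-/-. In all, 48 members were called higher in DKO against each of the other 3 genotypes, as were 11% of all genes tested.

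Whether the DKO change departed from the sum of both single-knockout changes on the log2 scale was tested as an interaction. It was called for 36 of the 84 members, 35 above and 1 below that sum, against 15.7% of all genes tested (8.39% above, 7.28% below). The median over the members was 0.28, against 0.004 (0.0037) over all genes. Rpl39 (0.59, SE 0.19), Rps27a (0.59, SE 0.15), Rps6 (0.53, SE 0.09), Rpl17 (0.52, SE 0.12), Rps27l (0.50, SE 0.12) and Rpsa (0.47, SE 0.08) were furthest above it among those called. Rpl29 was at -5.18 (SE 0.15, edgeR adjusted p = 6.55e-13). Under scaling by total counts the median of all genes shifted by -0.11, the split of all calls moved from 1063 above and 922 below to 711 and 1719, and 12 members were called above the sum. The count above it was 18 without WT 3 or without Cbl-/- 3, 19 without Cbl-b-/- 3 and 21 without Cbl-b-/- 1, each time with Rpl29 below.

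Scaling on the members alone shows which of them moved apart from the family. Under it the median of all genes shifted by -0.26 in DKO against WT, with 894 called higher and 5925 lower. In DKO against WT, Rpl12 (0.28, SE 0.07, edgeR adjusted p = 0.00257) and Rpsa (0.25, SE 0.07) were higher than the family, and Rpl29 (-6.13), Rpl17 (-0.22) and Rps14 (-0.18) were lower. The other 79 were not called. Against Cbl-/-, Rps27a (0.28), Rpl39 (0.25), Rpsa (0.23), Rpl12 (0.22) and Rps27l (0.22) were higher, and Rpl29 (-6.19), Rpl21 (-0.29) and Rpl3 (-0.20), a protein of the peptidyl transferase region, were lower. Against Cbl-b-/-, Rpl12 (0.25), Rpsa (0.22) and Rps6 (0.17, at the threshold with an adjusted p of 0.05 after rounding) were higher and Rpl29 (-5.40) lower.

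The 3 DKO libraries were not alike for every member. DKO 3 was the highest of them for 47 members and the lowest for 24. It also stood apart over genes in general. Its chi-square per degree of freedom was 44.7 against DKO 1 and 55.3 against DKO 2, and that between DKO 1 and DKO 2 was 10.2. Beside the members described, Rpl28 had 91.0 and 87.6 CPM in DKO 1 and DKO 2 and 51.2 in DKO 3. The median coefficient of variation of the members within a genotype was 6.21% for DKO, 7.17% for Cbl-b-/-, 4.21% for Cbl-/- and 4.86% for WT. WT 3 was the highest WT library for 77 members and Cbl-b-/- 2 the highest of its group for 71, so libraries of 1 genotype also differed across the family.

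Other genes of the translation machinery moved with the members. Fau and Rack1, ribosomal proteins whose symbols the rule does not catch, both rose in DKO against WT, by 0.18 and 0.27. Of 23 listed translation factors and other TOP mRNAs, a list that holds both, 16 rose and none fell (median 0.27), against 19.1% higher and 16.3% lower over all genes tested. The examples here and below were chosen after their values were seen. Eef1g (0.51) and Eef1b2 (0.35), subunits of the elongation factor exchange complex, and Npm1 (0.44), a nucleolar chaperone, were among those that rose. Eef1a1, the elongation factor itself, had 0.12 (edgeR adjusted p = 0.104) and Tpt1 0.10 (adjusted p = 0.358), so the call did not extend to all TOP mRNAs. Of 78 mitochondrial ribosomal protein genes, 39 rose and none fell (median 0.21). No gene of either list was called in Cbl-/- or Cbl-b-/- against WT by edgeR.

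**Figure D5:**
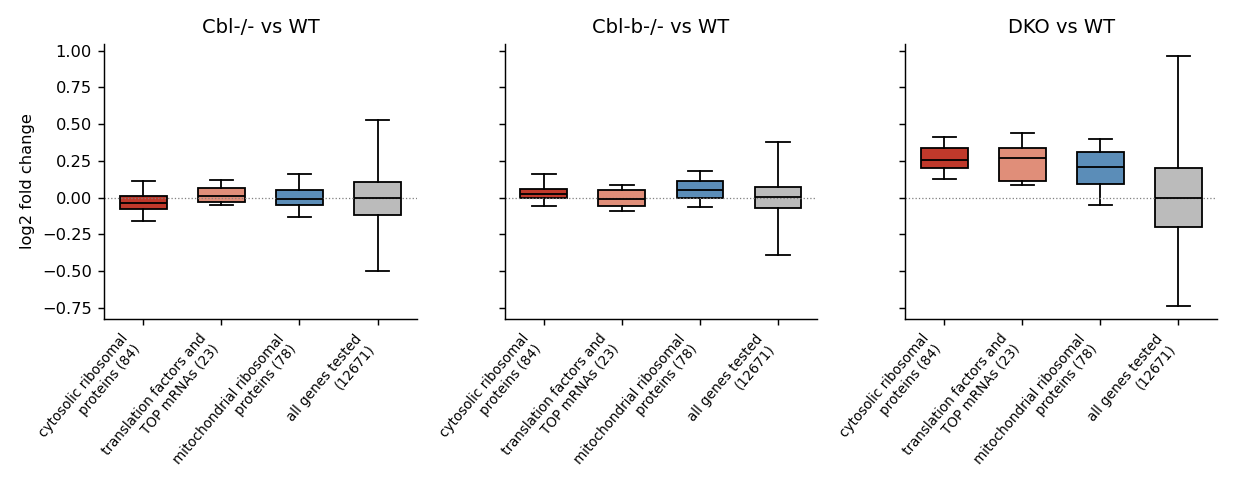
Log2 fold change against WT in each knockout for the 84 members, 23 translation factors and other TOP mRNAs, 78 mitochondrial ribosomal protein genes and all 12671 genes tested; boxes span the quartiles, lines mark medians and whiskers the 5th to 95th percentile. In DKO the medians are 0.26, 0.27 and 0.21 for the 3 lists, against -0.003 for all genes.

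Of 24 genes that control the synthesis of ribosomal proteins, 5 rose and 4 fell in DKO against WT (20.8% and 16.7%), shares close to the 19.1% higher and 16.3% lower over all genes tested, so the list as a whole did not stand out. Myc, which drives transcription of ribosomal protein genes, rose by 0.22 in DKO (SE 0.06, edgeR adjusted p = 0.0098) and by 0.27 in Cbl-/- (adjusted p = 0.0076). Larp1 rose by 0.24. Eif4ebp1 and Eif4ebp2, inhibitors of translation initiation that mTORC1 switches off, fell by 0.34 and 0.37 on the log2 scale. Eif2ak2, a kinase that interferons induce, rose by 0.68, Yy1 by 0.19 and Max by 0.17, and Mknk1 (-0.29) and Sp1 (-0.28) were lower.

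Of 14 listed targets of p53, including the gene of p53 itself and the member Rps27l, 7 rose and 1 fell in DKO, against 19.1% higher and 16.3% lower over all genes tested. Mdm2 rose by 0.47 (SE 0.06, edgeR adjusted p = 9.8e-06), Pmaip1, a death gene, by 1.47, Phlda3 by 0.56 and Cdkn1a, a cell cycle inhibitor, by 0.21, whereas Trp53inp1 fell by 0.35 on the log2 scale. Trp53 had -0.02 (adjusted p = 0.82). Of 10 pseudogene rows of ribosomal proteins in the table, 8 were tested and none was called against WT in any knockout.

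Markers of other cells also moved in DKO. Of the 10 macrophage markers 5 were called lower and 2 higher, against 16.3% lower and 19.1% higher over all genes tested. Their sums were 20110 to 22160 CPM in WT and 17140 to 20370 in DKO. The 8 monocyte markers summed to 60.03 to 65.9 CPM in WT and 162 to 218 in DKO, and all were present in the table. Granulocyte markers, of which 6 of 11 were in the table and Ly6g, Elane, Mpo, Camp and Retnlg were not, summed to 12.5 to 14.97 in WT and 73.6 to 93.5 in DKO. Dendritic markers (5 of 7 in the table) went from 16.4 to 19.6 in WT to 30.4 to 32.5 in DKO, and stromal and endothelial ones (7 of 8) from 4.23 to 7.43 to 15.5 to 19.1. Erythroid and megakaryocyte markers (2 of 7) went from 62.2 to 74.3 down to 28.9 to 33.3. The part of these cells in the rise of the members was not tested.

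Short genes as a class were a little higher in DKO. Most members are short: 55 of the 84 were in the shortest of 5 equal classes of tested genes by exon length, 204 to 2380 bases. The median log2 fold change of that class in DKO against WT was 0.07, and that of the longest class -0.05, both smaller than the 0.26 of the members. Of the 30 members with more than 50% of their stretches in other genes, 25 rose in DKO, as did 40 of the 54 others, with medians of 0.29 and 0.24. Both stand beside 77.4% of all 84 members and 19.1% of all genes tested that were higher, and their difference was not tested. The limit of 50% was set after the data were seen. In the annotation, 21 members overlap another gene of the table, and whether counting used the strand is a detail not given in the sources used here.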

How the data were processed

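RNA was sequenced in 12 macrophage libraries. Per the labels' protocols, libraries were stranded and made from messenger RNA with a TruSeq kit. The authors deposited unnormalized counts of reads per gene. The build was GRCm38.p5, per the submitters' processing notes. Aligner, counter and strand setting were not given in the sources used here. Symbols, exon lengths and positions were read from a GENCODE annotation (GRCm38) and promoter windows from RefSeq (GRCm38.p6). Every gene of the table had at least 1 count in WT 1, so genes without reads there were not analysed here; Rpl3l and Rpl10l have no row.

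The model, in edgeR 4.0.16 and R 4.3.3, held all 12 libraries: filterByExpr (12671 genes kept, 2884 removed), TMM factors, 1 mean per genotype, robust quasi-likelihood F tests, and p-values adjusted by Benjamini-Hochberg over every gene tested, called under 0.05 at any fold. CPM were computed from the deposited counts with TMM factors. SE is the log2 fold change divided by the square root of F. Shares of counts were compared by two-sided exact permutation. Alternatives were DESeq2 size factors, total counts, TMM without the members or on them alone, no filter or 5 CPM in 3 libraries, DESeq2 1.42.0, limma 3.58.1 voom, a block for replicate number, a fit of only the genotypes compared, and fits without each library in turn. The pipeline was tested on simulated counts.

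The members and lists were chosen with earlier results of these data known. Named were Rpl29, the 6 largest rises and falls called in each comparison, members of the role lists, the 3 highest and lowest per kilobase, members that moved apart from the family, and the 3 most like Rpl29; others were chosen after their values were seen. Replicates of 1 genotype differed by 3.93 to 55.3 in chi-square per degree of freedom, so all were kept as separate libraries. The pairs with DKO 3 had 44.7 and 55.3, and no other pair was above 12.3.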

Additional observations from a re-analysis of the deposited data

Results flagged for a closer look

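For 7 of the members named in the additivity contrast, the effect of 1 knockout differed with the state of the other gene, by the test of the difference itself with edgeR. On the log2 scale the departure was -5.18 for Rpl29 (adjusted p = 6.55e-13), 0.47 for Rpsa, 0.501 for Rps27l, 0.521 for Rpl17, 0.533 for Rps6, 0.589 for Rps27a and 0.593 for Rpl39 (adjusted p = 0.0466). These 7 are Rpl29 and the 6 largest among the 36 members called, so their size follows from how they were picked. The call of Rpl39 was lost under several alternatives, and the calls of Rpsa, Rps27l, Rpl17, Rps27a and Rpl39 were lost when the libraries were scaled on the members alone, as that scaling takes out the change they share with the family.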

How the results depend on the processing

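No call of a named member changed direction under any alternative run. The calls of Rpl29 in Cbl-b-/- and DKO held under all of them. Under scaling on the members alone, which by construction removes a change common to the family, the number called fell to 5 in DKO against WT (median -0.00031), 8 against Cbl-/- (0.0036), 4 against Cbl-b-/- (0.0025) and 3 in the additivity contrast (0.014). With total counts the medians were 0.209, 0.142 and 0.171 in the last 3 of these comparisons, with 29 called against Cbl-b-/- and 13 in the additivity contrast. In Cbl-/- against WT, 8 members were called with only the genotypes compared, and in Cbl-b-/- against WT 2 with DESeq2. The cause of these last changes was not tested. Leaving out 1 library at a time gave 1 to 6 members called in Cbl-/- against WT (medians -0.061 to 0.0032), 1 in Cbl-b-/- against WT, 43 to 69 in DKO against WT, 60 to 70 against Cbl-/-, 33 to 63 against Cbl-b-/- and 19 to 47 in the additivity contrast.

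Same-numbered libraries of different genotypes did not deviate together (correlations -0.054 to 0.052, and 3 of 12 libraries correlated best with their own number). No pairing by number was thus seen, but with so few libraries this cannot show that the samples were unpaired. With the replicate number as a block, 2 members were called in Cbl-/- against WT, 1 in Cbl-b-/- against WT, 66 in DKO against WT, 70 against Cbl-/-, 50 against Cbl-b-/- and 31 in the additivity contrast. The block ended the calls of Rpl21 in Cbl-/- against WT (edgeR adjusted p = 0.0709) and of Rpl39 in the additivity contrast (adjusted p = 0.0638). Depth limits Rpl39l most, with 1 to 13 counts per library.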
